A study of Rattus norvegicus with 4 samples.

Results

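Enzymes that write or erase methyl groups on lysine and arginine residues of histones and other proteins were followed in the brains of rats that had an intracerebral hemorrhage, that is, a bleeding within the brain. Members were the entries of the expression table with a symbol of the Kmt, Kdm, Setd, Suv, Ehmt, Prmt, Ezh, Nsd, Prdm or Smyd families followed by a digit, together with Eed, Suz12, Dot1l, Ash1l, Ash2l, Carm1, Wdr5 and Jarid2. This gave 72 of 17853 genes, of which 62 reached 1 RPKM on average and 10 did not. RPKM is the reads of a gene scaled to its length and to the mapped reads of its library, a level that can be compared between genes. The groups were ipsilateral brain (the side of the bleeding) at 21 months, called old, contralateral brain (the opposite side) at 21 months, ipsilateral brain at 13 months, called adult, and contralateral brain at 13 months. Each group held 1 library of polyadenylated RNA, and the labels tell of RNA pooled over several brains without saying whether these stand behind each library or the whole series. Every library came from animals with a hemorrhage, so the contralateral side is no uninjured brain. The time after the bleeding, the strain, the sex and the way the bleeding was made are not given in the labels. The files give no read counts, so the depth of the libraries is unknown, and with 1 library a group the values carry no error of their own.

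Histone lysine methylation marks chromatin states: methylation of H3K4 is found at active promoters and enhancers, H3K36 and H3K79 methylation in transcribed genes, and H3K9, H3K27 and H4K20 methylation in silenced or compacted chromatin. Polycomb repressive complex 2 (PRC2) writes the H3K27 mark, and the KDM enzymes remove marks from lysines. Arginine methyltransferases (PRMTs) modify histones, splicing factors and ribosomal proteins. Many members are linked to neurodevelopmental disorders in humans.

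RPKM summed to between 388632 and 402100 over the libraries. Mitochondrial genes made up 20.6% of this sum in the ipsilateral and 24.1% in the contralateral library at 21 months. At 13 months they made up 18.5% ipsilaterally against 23.3% contralaterally. As a check of the tissue, markers of neurons summed to 2051 RPKM in the ipsilateral and 2418 RPKM in the contralateral library at 21 months, and to 1742 RPKM ipsilaterally against 2443 RPKM contralaterally at 13 months. The lowest sum of oligodendrocyte markers in a library was 2199 RPKM and that of astrocyte markers 1228 RPKM, and no matched marker of the 14 marker lists was at 0 in all libraries. Pineal and retinal markers stood apart in the 13 month contralateral library, at 34.3 RPKM against 6.17 to 7.41 RPKM in the others. Choroid plexus markers summed to 1074 RPKM ipsilaterally against 1810 RPKM contralaterally at 21 months and to 676 against 1230 RPKM at 13 months, with 5 of 8 tested genes that fell in limma. The part of such differences in tissue content in the side ratios of the members was not tested. In bulk tissue, fewer cells of a type and less RNA per cell cannot be told apart.

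The promoters shown here are those of the PRC2 genes Ezh2, Eed and Suz12, whose transcripts are set against each other below, and of Kmt2c, the member with the lowest side ratio. They run from 250 bases before to 50 bases after the start of the gene, 5′ to 3′, from RefSeq on the rat build GRCr8, which need not be the build behind the expression values. They lie at chr4:77687134-77687433 (minus strand) for Ezh2, chr1:153307451-153307750 (minus strand) for Eed, chr10:65464719-65465018 (plus strand) for Suz12 and chr4:10354227-10354526 (plus strand) for Kmt2c. Capitals mark words known from cell cycle and general promoters, read on both strands: the E2F words TTTGGCGC, TTTCCCGC, TTTGCCGC and TTTCGCGC, the CHR word TTTGAA, the NF-Y word CCAAT and the Sp1 word GGGCGG.
Ezh2: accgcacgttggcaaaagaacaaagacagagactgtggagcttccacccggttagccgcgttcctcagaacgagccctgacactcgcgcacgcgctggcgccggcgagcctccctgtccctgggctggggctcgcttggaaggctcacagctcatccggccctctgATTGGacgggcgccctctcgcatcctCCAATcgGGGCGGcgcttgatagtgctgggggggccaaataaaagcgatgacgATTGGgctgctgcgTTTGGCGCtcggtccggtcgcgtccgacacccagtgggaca
Eed: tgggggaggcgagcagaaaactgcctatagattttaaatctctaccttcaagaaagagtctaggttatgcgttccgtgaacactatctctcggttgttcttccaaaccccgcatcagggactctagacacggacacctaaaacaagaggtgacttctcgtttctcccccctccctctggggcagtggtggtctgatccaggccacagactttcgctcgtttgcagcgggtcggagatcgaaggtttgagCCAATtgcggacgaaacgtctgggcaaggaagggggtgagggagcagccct
Suz12: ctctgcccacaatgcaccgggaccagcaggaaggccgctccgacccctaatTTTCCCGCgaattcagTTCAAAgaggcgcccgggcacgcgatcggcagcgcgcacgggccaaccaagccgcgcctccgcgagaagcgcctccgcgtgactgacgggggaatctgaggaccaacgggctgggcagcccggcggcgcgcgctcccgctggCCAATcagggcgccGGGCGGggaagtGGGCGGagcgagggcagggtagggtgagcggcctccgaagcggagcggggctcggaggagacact
Kmt2c: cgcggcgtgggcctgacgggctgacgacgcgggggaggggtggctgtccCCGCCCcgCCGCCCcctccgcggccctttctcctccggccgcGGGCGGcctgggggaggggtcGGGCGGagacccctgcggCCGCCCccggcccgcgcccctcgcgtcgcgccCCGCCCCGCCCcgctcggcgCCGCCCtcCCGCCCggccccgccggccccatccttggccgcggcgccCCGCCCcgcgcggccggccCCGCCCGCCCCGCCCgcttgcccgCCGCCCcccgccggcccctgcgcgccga
The Ezh2 promoter held the E2F word TTTGGCGC from base 260, the NF-Y word at 3 places and the Sp1 word at 1. Suz12 held the E2F word TTTCCCGC from base 52 and the CHR word, while Eed held only the NF-Y word of these words. The Kmt2c promoter had a G and C content of 88.7%, against 64.7% for Ezh2, 53.7% for Eed and 71.3% for Suz12, and held the Sp1 word in overlapping or adjacent copies. Words of different motifs did not overlap in these sequences. A promoter was matched for 52 of the 62 members, 6 of them by an older name. An E2F word was in 7.69% of the member promoters (Ezh2, Suz12, Kdm1a and Suv420h2) and in 3.87% of the 9554 promoters of all genes tested. The CHR word was in 3.85% of member promoters and 11.0% of all, the NF-Y word in 46.2% of member promoters and 37.2% of all, and the Sp1 word in 63.5% of member promoters and 62.9% of all. The median G and C content was 62.7% for members and 61.3% for all genes tested. A word in a promoter is a description of its letters and not a binding site.

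The side of the bleeding was set against the opposite side at each age, as the log2 ratio of RPKM after adding 1 RPKM, which understates the change of low genes. Of the 62 members, Ezh2 was the 1 gene higher by at least 1.5-fold on the ipsilateral side, at both ages, and Kmt2c the 1 gene lower by as much, at 21 months. Among all 12160 genes tested, 13.0% were higher by 1.5-fold at 21 months and 12.9% at 13 months, so 1.61% of members at each age lay below the background. Lower by 1.5-fold were 1.79% of all genes at 21 months and 1.74% at 13 months, against 1.61% of members at 21 months and 0 of 62 at 13 months. Of the members, Ezh2 alone reached a 2-fold ratio, at 13 months, where 7.19% of all genes were that much higher. At 21 months 0 members were higher by 2-fold, against 5.61% of all genes. Lower by 2-fold were 0 members at either age, against 0.288% of all genes at 21 months and 0.0658% at 13 months. The middle of the distributions was closer. Members had a median log2 side ratio of 0.03 at 21 months and 0.06 at 13 months, beside 0.09 and 0.01 for all genes. With libraries scaled by their sum without mitochondrial genes, the medians were -0.08 and -0.03 for members, beside -0.01 and -0.08 for all genes.

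**Figure D1:**
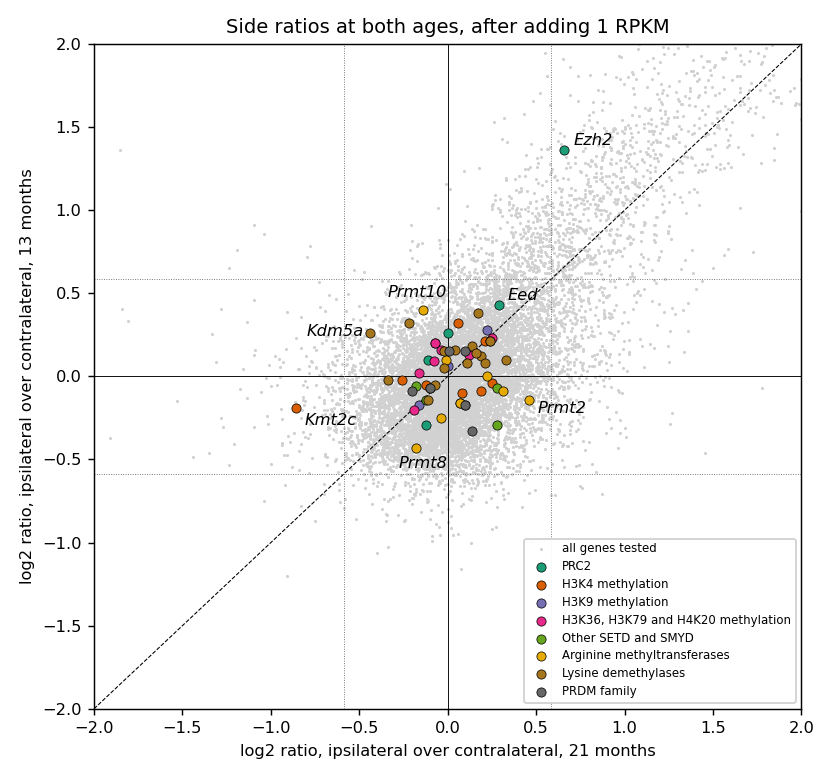
Side ratios as log2 of ipsilateral over contralateral levels, with 1 RPKM added to each, at 21 months (x axis) and at 13 months (y axis). Grey points are all genes tested, coloured points the 62 members by role, dotted lines 1.5-fold and the dashed line equal ratios. Ezh2 (0.66 and 1.36) lies in the upper right and Kmt2c (-0.86 and -0.19) on the far left of the members, while 267 other genes lie beyond the axes.

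As a secondary summary over both ages, all 4 libraries were fitted in limma, with terms for side and for age. Ezh2 rose by a log2 value of 1.01 ± 0.19 (SE; adjusted p = 0.00034 in limma, with 2 libraries on each side), being higher in the ipsilateral library at both ages. It was the 1 member of 62 that rose and 0 members fell, against 13.3% of all genes that rose and 0.814% that fell. The same shares are the background for the limma counts by role and by list given below. At an unadjusted p under 0.05 in limma, Eed was also higher (0.36 ± 0.17, adjusted p = 0.206) and Kmt2c lower (-0.52 ± 0.18, adjusted p = 0.0654); at that limit 18.9% of all genes were higher and 4.47% lower. Only 1 residual degree of freedom remains, which is the difference of the side ratio between the ages, so the spread comes mainly from the other genes. With no filter on low values it called no member, and the adjusted p of Ezh2 was 0.218.

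Ezh2 and Ezh1 encode the alternative catalytic subunits of PRC2, and Ezh2 is the form known from dividing cells. Ezh2 (ENSRNOG00000006048, chromosome 4) was at 3.91 RPKM in the ipsilateral and 2.10 RPKM in the contralateral library at 21 months. At 13 months it was at 6.69 RPKM ipsilaterally and 2.0 RPKM contralaterally. The contralateral levels of both ages were nearly the same, and both ipsilateral levels lay above them. Without adding 1 RPKM the ratio was 1.86-fold at 21 months and 3.35-fold at 13 months. Among all genes tested, 89.1% had a lower side ratio than Ezh2 at 21 months and 95.4% at 13 months. Scaling the libraries by their median ratio or by their sum without mitochondrial genes brought the 21 month ratio to a log2 value of 0.58, just under 1.5-fold.

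Ezh1 was at 13.3 RPKM ipsilaterally and 14.5 RPKM contralaterally at 21 months, and at 12.7 RPKM ipsilaterally against 15.7 RPKM at 13 months. Ezh1 was thus the more abundant of the catalytic subunits in every library, and slightly lower on the ipsilateral side at both ages. The level of Ezh2 was 0.294 of that of Ezh1 in the ipsilateral and 0.145 in the contralateral library at 21 months, and 0.528 ipsilaterally against 0.127 at 13 months. Eed, the subunit that binds methylated H3K27, was at 18.2 RPKM ipsilaterally against 14.7 RPKM contralaterally at 21 months, and at 21.1 against 15.4 RPKM at 13 months, with log2 side ratios of 0.29 and 0.43. It was higher ipsilaterally at both ages but did not pass the test. Suz12, the scaffold of the complex, was at 10.03 RPKM ipsilaterally against 10.05 RPKM contralaterally at 21 months, and at 12.2 against 10.05 RPKM at 13 months. Its 13 month ipsilateral library was the high one, and the other values were alike. Jarid2, which helps to bring PRC2 to chromatin, was at 5.32 RPKM ipsilaterally against 5.81 RPKM contralaterally at 21 months, and at 6.49 against 5.98 RPKM at 13 months.

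**Figure D2:**
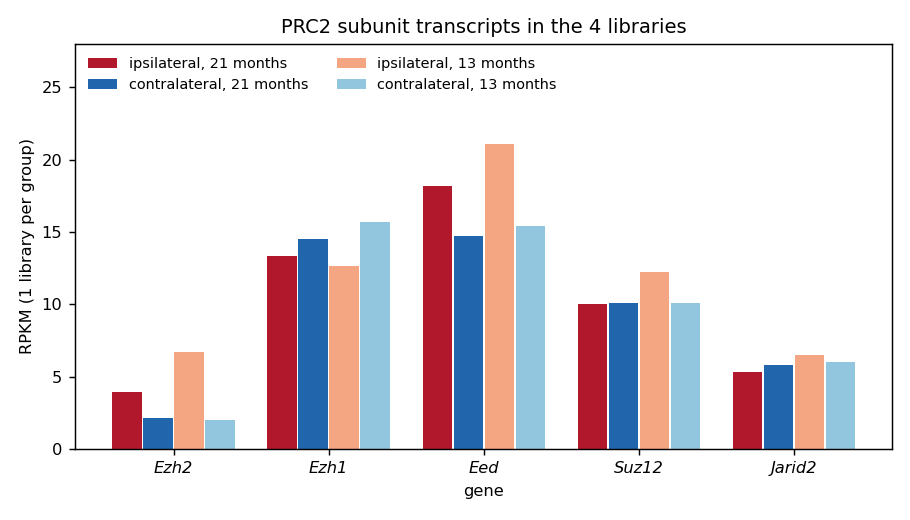
RPKM (y axis) of the PRC2 genes Ezh2, Ezh1, Eed, Suz12 and Jarid2 in each library, 1 bar per library and group, with no error because each group held 1 library. Ezh2 bars are 3.91 RPKM ipsilaterally against 2.10 RPKM contralaterally at 21 months and 6.69 against 2.0 RPKM at 13 months, and Ezh1 lies above Ezh2 in every library.

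Markers of dividing and of myeloid cells were also higher on the ipsilateral side. All 19 tested cell cycle markers rose in limma, and their RPKM summed to 149 ipsilaterally and 58.6 contralaterally at 21 months and to 211 ipsilaterally against 65.1 at 13 months. Like Ezh2, the list had its highest sum in the 13 month ipsilateral library. Of 14 microglia and macrophage markers 13 rose, with sums of 717 RPKM ipsilaterally against 205 RPKM contralaterally at 21 months and 695 against 224 RPKM at 13 months. The part of either list in the result for Ezh2 was not tested. The accessory subunits of PRC2 had 0 of 6 tested genes that rose or fell, with median log2 side ratios of 0.02 at 21 months and 0.06 at 13 months. Aebp2 had 0.14 at 21 months and 0.32 at 13 months, and Phf1 had 0.19 and -0.32. Of all genes tested, 13.3% rose in limma and 0.814% fell. Of 16 tested subunits of PRC1, another Polycomb complex, Pcgf5 rose (0.61 ± 0.17, adjusted p = 0.0146 in limma, 2 libraries per side), and 0 fell. Its levels were 6.68 RPKM ipsilaterally against 4.26 RPKM contralaterally at 21 months and 8.12 against 4.69 RPKM at 13 months, so both ipsilateral values lay above both contralateral ones.

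Of the H3K4 methyltransferases and their core subunits, 0 of 8 passed the test. Kmt2c (ENSRNOG00000007997, chromosome 4), an enzyme of enhancer H3K4 methylation, was at 3.02 RPKM in the ipsilateral and 6.28 RPKM in the contralateral library at 21 months. At 13 months it was at 4.87 RPKM ipsilaterally and 5.70 RPKM contralaterally. The 21 month ipsilateral library was the low one, with log2 side ratios of -0.86 at 21 months and -0.19 at 13 months. Among all genes tested, 0.477% had a lower side ratio at 21 months and 26.2% at 13 months. With median-ratio scaling Kmt2c fell in limma, by 0.57 on the log2 scale (adjusted p = 0.0234, lower at both ages).

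Kmt2a, the founding member of the MLL enzymes, was at 3.16 RPKM ipsilaterally against 3.51 RPKM contralaterally at 21 months, and at 3.24 against 3.40 RPKM at 13 months, nearly level over the libraries. Ash2l and Wdr5 are core subunits that the H3K4 methyltransferase complexes share. Ash2l was at 23.7 RPKM ipsilaterally against 22.8 RPKM contralaterally at 21 months, and at 26.2 against 20.8 RPKM at 13 months. Wdr5 was at 5.77 RPKM ipsilaterally against 4.84 RPKM contralaterally at 21 months, and at 5.49 against 4.60 RPKM at 13 months. For both genes each ipsilateral value lay above both contralateral ones. How many of all genes had such an order was not counted, here or for other genes described so. Kmt2b, Kmt2e, Setd1a and Setd1b had log2 side ratios between -0.26 and 0.25. Of 11 tested accessory subunits of these complexes 0 rose and 0 fell, with medians of 0.02 at 21 months and 0.05 at 13 months.

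H3K9 methylation is written by the SUV39 and EHMT enzymes. Ehmt2, also known as G9a, was among the most abundant members, at 29.4 RPKM ipsilaterally against 32.9 RPKM contralaterally at 21 months, and at 31.3 against 35.2 RPKM at 13 months. Its partner Ehmt1 was at 2.77 RPKM ipsilaterally against 2.78 RPKM contralaterally at 21 months, and at 3.09 against 2.93 RPKM at 13 months. Both ipsilateral values of Ehmt2 lay below both contralateral ones, whereas Ehmt1 was level. The gene listed as Suv39h1l1 was at 3.13 RPKM ipsilaterally against 2.55 RPKM contralaterally at 21 months, and at 3.56 against 2.76 RPKM at 13 months, each ipsilateral value above both contralateral ones. Suv39h2 was at 1.08 RPKM ipsilaterally against 1.18 RPKM contralaterally at 21 months, and at 1.44 against 1.12 RPKM at 13 months. Among 10 tested partners and readers of H3K9 methylation 1 rose and 0 fell, against 13.3% and 0.814% of all genes. It was Uhrf1, which also guides maintenance DNA methylation, with a rise of 0.99 ± 0.18 (adjusted p = 0.00025 in limma, 2 libraries per side). Uhrf1 was at 2.08 RPKM ipsilaterally against 0.83 RPKM contralaterally at 21 months, and at 3.44 against 0.89 RPKM at 13 months, and is also known as a gene of dividing cells.

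H3K36 methylation is written by Setd2, Nsd1 and Ash1l, H3K79 methylation by Dot1l and H4K20 methylation by Setd8, Suv420h1 and Suv420h2. Of these 7 genes, 2 had a side ratio above the all-gene median at 21 months and 6 at 13 months, and 5 at 13 months when scaled by the sum without mitochondrial genes. All stayed within 1.5-fold. Setd2, which writes H3K36 trimethylation, was at 10.8 RPKM ipsilaterally against 11.4 RPKM contralaterally at 21 months, and at 13.3 against 11.4 RPKM at 13 months. Its high library was the 13 month ipsilateral one. Ash1l was at 13.2 RPKM ipsilaterally against 15.1 RPKM contralaterally at 21 months, and at 12.3 against 14.3 RPKM at 13 months. Both ipsilateral values were the low ones. Setd8, which adds the initial methyl group to H4K20 in dividing cells, was at 2.51 RPKM ipsilaterally against 1.95 RPKM contralaterally at 21 months, and at 2.52 against 2.0 RPKM at 13 months, so the ipsilateral values lay above the contralateral ones by a like amount at both ages. Dot1l was at 3.49 RPKM ipsilaterally against 3.63 RPKM contralaterally at 21 months, and at 3.73 against 3.23 RPKM at 13 months, and 0 of its 10 tested partners rose or fell.

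The lysine demethylases were the largest role, with 17 tested genes, of which 0 passed the test. Relative to the all-gene median, 9 of 17 had a higher side ratio at 21 months and 14 of 17 at 13 months, and both counts were the same under either scaling. Kdm6a and Kdm6b remove the mark that PRC2 writes. Kdm6a, on the X chromosome, was at 1.81 RPKM ipsilaterally against 1.38 RPKM contralaterally at 21 months, and at 1.90 against 1.51 RPKM at 13 months. Kdm6b, which inflammatory signals induce in macrophages, was at 4.22 RPKM ipsilaterally against 3.41 RPKM contralaterally at 21 months, and at 3.84 against 3.18 RPKM at 13 months. For both genes each ipsilateral value lay above both contralateral ones, with log2 side ratios of 0.24 at 21 months and 0.21 at 13 months. The microglia and macrophage markers had median log2 side ratios of 1.88 at 21 months and 1.64 at 13 months. Their part in the values of Kdm6a and Kdm6b was not tested.

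Kdm5a, an H3K4 demethylase, was at 3.63 RPKM in the ipsilateral and 5.30 RPKM in the contralateral library at 21 months, for a log2 ratio of -0.44. At 13 months it was at 6.56 RPKM ipsilaterally and 5.32 RPKM contralaterally, for a log2 ratio of 0.26. The contralateral values of both ages were alike, and the ipsilateral values lay on opposite sides of them. Its relative Kdm5b was at 6.46 RPKM ipsilaterally against 6.81 RPKM contralaterally at 21 months, and at 6.43 against 6.70 RPKM at 13 months, nearly level. The sex-linked pair Kdm5c, on the X chromosome, and Kdm5d, on the Y chromosome, had similar levels. Kdm5c was at 5.0 RPKM ipsilaterally against 4.38 RPKM contralaterally at 21 months, and at 5.26 against 4.70 RPKM at 13 months, with Kdm5d at 0.994 to 1.05 of Kdm5c in the libraries. Both had log2 side ratios between 0.08 and 0.16.

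Kdm1a, also known as LSD1, was at 16.3 RPKM ipsilaterally against 16.6 RPKM contralaterally at 21 months, and at 17.9 against 17.2 RPKM at 13 months, and hardly differed between the libraries. Its paralog Kdm1b was at 2.82 RPKM ipsilaterally against 2.39 RPKM contralaterally at 21 months, and at 3.41 against 2.40 RPKM at 13 months. The 13 month ipsilateral value was its highest. Kdm2a, an H3K36 demethylase, was at 12.6 RPKM ipsilaterally against 11.3 RPKM contralaterally at 21 months, and at 13.4 against 11.7 RPKM at 13 months. Kdm4b, an H3K9 demethylase, was at 4.21 RPKM ipsilaterally against 4.63 RPKM contralaterally at 21 months, and at 3.90 against 4.41 RPKM at 13 months. Kdm2a was higher and Kdm4b lower ipsilaterally at both ages, within 1.5-fold. The log2 side ratios of Kdm2b, Kdm3a, Kdm3b, Kdm4a, Kdm4c, Kdm7a and Kdm8 lay between -0.34 (Kdm4c at 21 months) and 0.33 (Kdm8 at 21 months). Of 8 tested LSD1 and CoREST partners and 11 tested other genes of the JmjC family, 0 rose and 0 fell.

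Among arginine methyltransferases, 0 of 8 tested genes passed the test. Prmt8, the membrane-anchored PRMT known from neurons, was at 16.6 RPKM ipsilaterally against 18.9 RPKM contralaterally at 21 months, and at 14.1 against 19.3 RPKM at 13 months. Both ipsilateral values lay below both contralateral ones, with log2 side ratios of -0.18 and -0.43. Neuron markers also had lower ipsilateral sums at both ages, as given above, with median log2 side ratios of -0.23 at 21 months and -0.44 at 13 months, and their part in the values of Prmt8 was not tested. Prmt2, a coactivator of nuclear receptors, was at 28.5 RPKM in the ipsilateral and 20.4 RPKM in the contralateral library at 21 months, and at 19.6 RPKM ipsilaterally against 21.6 RPKM at 13 months. The 21 month ipsilateral library was the high one, with log2 side ratios of 0.46 at 21 months and -0.14 at 13 months.

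Carm1, a coactivator that methylates histone H3, was at 11.2 RPKM ipsilaterally against 8.84 RPKM contralaterally at 21 months, and at 8.25 against 8.82 RPKM at 13 months. Its 21 month ipsilateral value stood above the other libraries, as with Prmt2. Prmt5, the main enzyme of symmetric arginine dimethylation, was at 14.98 RPKM ipsilaterally against 12.8 RPKM contralaterally at 21 months, and at 13.7 against 13.6 RPKM at 13 months. Prmt1, the main enzyme of asymmetric dimethylation in mammals, was listed at 0.80 RPKM ipsilaterally against 0.99 RPKM contralaterally at 21 months, and at 0.82 against 0.58 RPKM at 13 months, under the filter. How reads were assigned to Prmt1 and its relatives is not known, so this low level need not be that in the tissue. Prmt3, Prmt6, Prmt7 and Prmt10 had log2 side ratios between -0.25 and 0.40. Of 10 tested partners and readers of arginine methylation 0 rose and 0 fell, and Snd1, a reader of methylated arginine, had log2 side ratios of 0.49 at 21 months and 0.45 at 13 months. Ddah2, which degrades free methylated arginine, had 0.52 and -0.03.

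The remaining SETD and SMYD genes encode lysine methyltransferases with many non-histone substrates. Of 7 tested genes 3 had a side ratio above the all-gene median at 21 months and 0 at 13 months, and both counts were the same under either scaling. Smyd2, which methylates p53 and other proteins, was the most abundant member, at 51.9 RPKM ipsilaterally against 42.6 RPKM contralaterally at 21 months, and at 41.6 against 43.6 RPKM at 13 months. Setd7, which methylates histone H3 and other proteins, was at 18.9 RPKM ipsilaterally against 17.96 RPKM contralaterally at 21 months, and at 18.3 against 20.5 RPKM at 13 months. Smyd5 was at 4.53 RPKM ipsilaterally against 5.02 RPKM contralaterally at 21 months, and at 4.20 against 4.72 RPKM at 13 months, and Setd5 at 12.2 RPKM ipsilaterally against 13.2 RPKM contralaterally at 21 months, and at 12.1 against 12.7 RPKM at 13 months. Smyd2 was highest in the 21 month ipsilateral library, and Smyd5 and Setd5 were lower ipsilaterally at both ages. The log2 side ratios of Setd4, Setd6 and Smyd4 lay between -0.29 and 0.28, both of them values of Setd6. Oligodendrocyte markers summed to 2947 RPKM ipsilaterally against 2489 RPKM contralaterally at 21 months and to 2199 against 2644 RPKM at 13 months. Their sum was thus higher ipsilaterally at 21 months and lower at 13 months, as Smyd2 and Prmt2 were. Side ratios were above 0 at 21 months and below 0 at 13 months for 12 of 62 members and 2705 of 12160 genes. The part of the oligodendrocyte markers in the values of Smyd2 and Prmt2 was not tested.

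The PRDM genes encode zinc finger regulators, of which some have methyltransferase activity. Only 6 of 13 reached a mean of 1 RPKM, and 0 of these passed the test. Prdm1, also known as Blimp-1, a regulator of plasma cells, T cells and myeloid cells, was listed at 0.38 RPKM ipsilaterally against 0.11 RPKM contralaterally at 21 months, and at 0.57 against 0.09 RPKM at 13 months. Both ipsilateral values lay above both contralateral ones, but all are low and their precision is unknown. It did not pass the filter. Without the filter its limma effect was 0.42 (adjusted p = 0.217), and with 0.1 RPKM added in place of 1 RPKM it was 1.51 (adjusted p = 0.0829), so Prdm1 passed the test in neither. T cell markers summed to 32.3 RPKM ipsilaterally against 8.01 RPKM contralaterally at 21 months and to 52.2 against 8.16 RPKM at 13 months. Cd4 and Cd8a made up most of both ipsilateral sums. In the 21 month ipsilateral library Cd4 gave 18.97 RPKM and Cd8a 8.32 RPKM. In the 13 month ipsilateral library Cd4 gave 14.49 RPKM and Cd8a 21.79 RPKM. Only 4 of the 10 T cell markers passed the filter. Cd3d, Cd3e and Cd3g did not, and none of them exceeded 1.6 RPKM in any library. B and plasma cell markers summed to 61.3 RPKM ipsilaterally against 63.1 RPKM contralaterally at 21 months and to 44.9 against 33.9 RPKM at 13 months. The part of either list was not tested. Prdm10 was at 0.98 RPKM ipsilaterally against 1.12 RPKM contralaterally at 21 months, and at 1.12 against 1.22 RPKM at 13 months. It was slightly lower ipsilaterally at both ages. The log2 side ratios of Prdm2, Prdm4, Prdm8 and Prdm15 lay between -0.33 (Prdm8 at 13 months) and 0.15. The other members under the filter were Kdm4d, Smyd1, Prdm6, Prdm9, Prdm11, Prdm12, Prdm13 and Prdm16, and none of these exceeded 1.15 RPKM in any library.

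**Figure D3:**
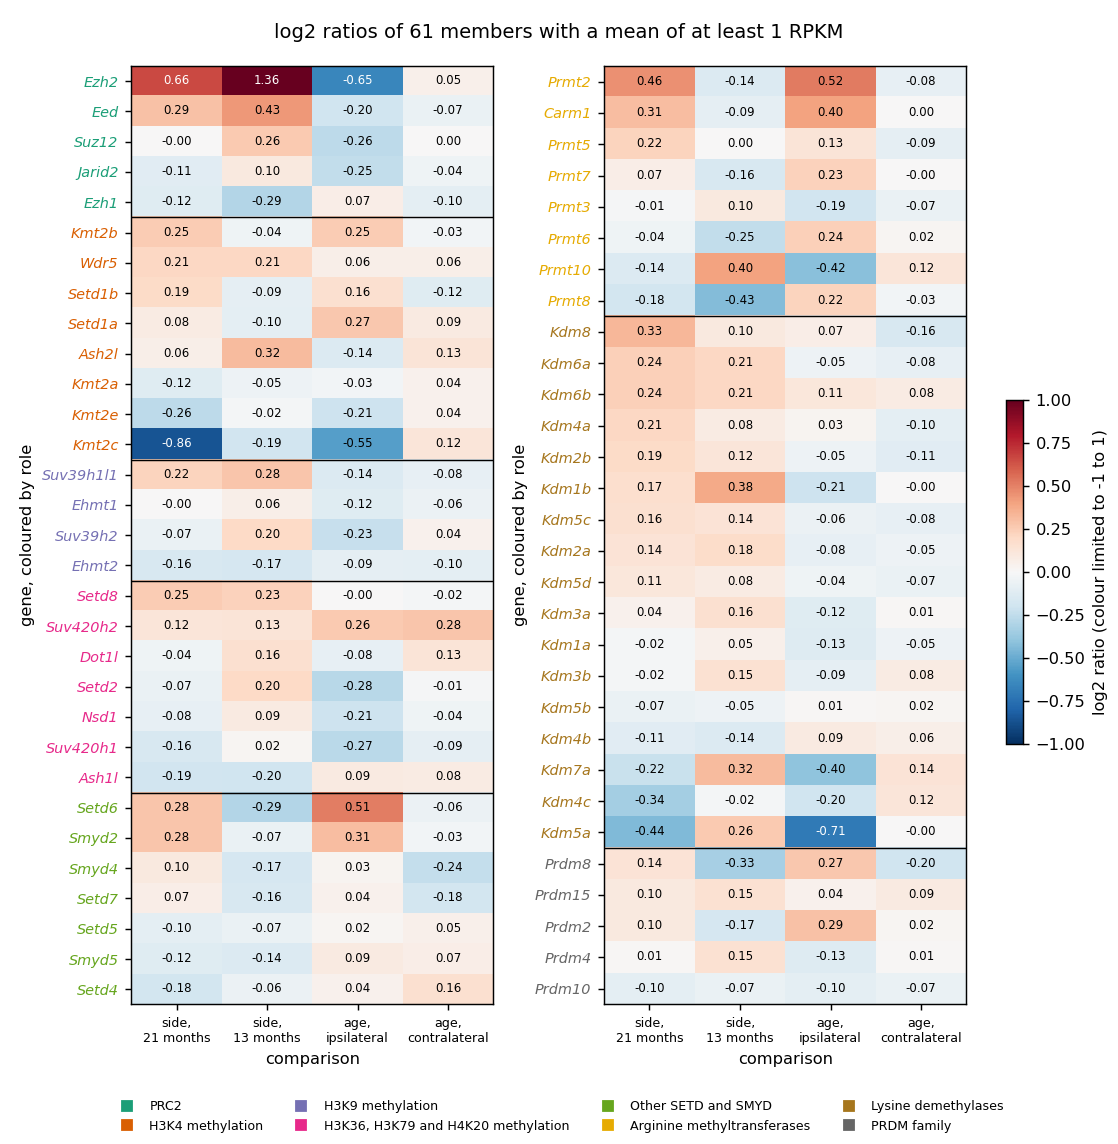
Log2 ratios, after adding 1 RPKM, of 61 members with a mean of at least 1 RPKM (rows, names coloured and blocks divided by role) in the side comparisons (ipsilateral over contralateral) and the age comparisons (21 over 13 months), printed in each cell. Most cells are pale, with Ezh2, Kmt2c and Kdm5a as the cells past 1.5-fold and the contralateral age column the palest.

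The ages were set against each other on each side to ask how the old brain differed from the adult one, with no test since both sides can come from the same animals. Ipsilaterally, Kdm5a (-0.71) and Ezh2 (-0.65) were lower at 21 months by at least 1.5-fold, against 4.20% of all genes, and 0 members were higher by as much, against 3.99%. The next members were Kmt2c at -0.55, Prmt2 at 0.52 and Setd6 at 0.51. Setd6, which methylates the NF-kappaB subunit RelA, was at 4.97 RPKM in the 21 month and 3.18 RPKM in the 13 month ipsilateral library. Contralaterally, 0 of 62 members passed 1.5-fold in either direction, against 0.658% of all genes that were higher and 0.387% that were lower at 21 months. The contralateral log2 age ratios of the members lay between -0.24 (Smyd4) and 0.28 (Suv420h2). Their median size without sign was 0.07, against 0.13 for the ipsilateral age ratios of the same genes, and 0.09 and 0.21 for all genes. By role, 3 of 17 demethylases and 6 of 8 arginine methyltransferases had an ipsilateral age ratio above the median of all genes, and both counts were the same under either scaling. These comparisons share their libraries with the side comparisons.

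The side ratio was also compared between the ages, as the ratio at 21 months minus that at 13 months. Lower by 1.5-fold at 21 months were Ezh2 (-0.69), Kdm5a (-0.70) and Kmt2c (-0.67), 4.84% of members against 4.83% of all genes. Higher was Prmt2 (0.60), 1.61% of members against 6.32% of all genes. At 2-fold, 0 members were higher and 0 lower, against 0.650% and 0.757% of all genes. These differences were not tested. Side ratios had the same sign at both ages for 36 of 62 members, 20 of them above 0 and 16 below, against 4671 above and 3219 below of all 12160 genes. Across members, which are not independent replicates and share the libraries, the Pearson r of the side ratios was 0.35, and 0.17 without Ezh2, against 0.77 across all genes tested.

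**Figure D4:**
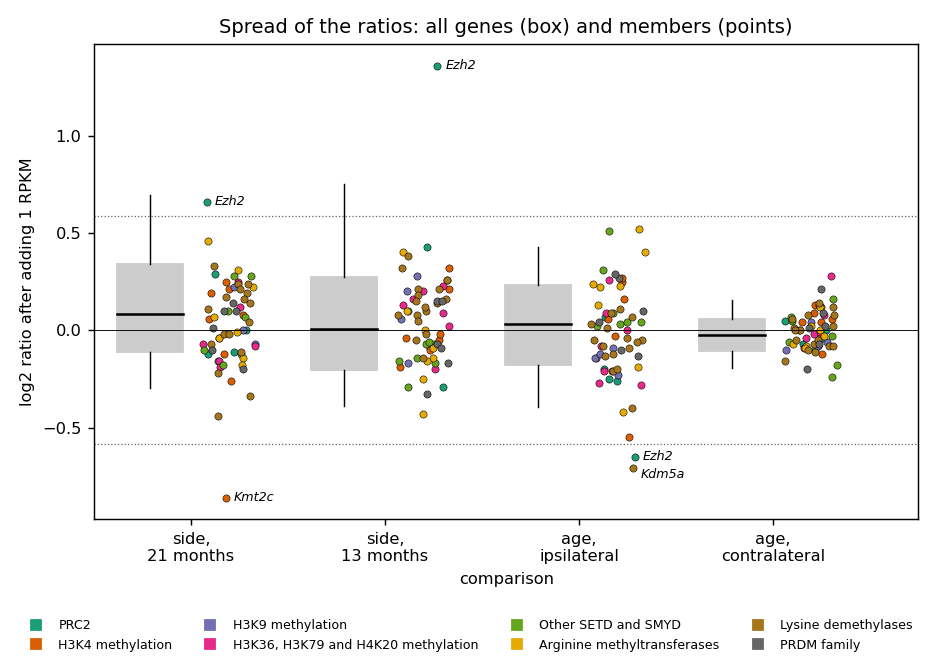
Log2 ratios after adding 1 RPKM (y axis) in the side comparisons (ipsilateral over contralateral) and the age comparisons (21 over 13 months). Boxes show the middle 50% of all 12160 genes with the median, whiskers the 10th and 90th percentiles, points the 62 members coloured by role, and dotted lines 1.5-fold. The median size of the side ratios without sign was 0.14 for members and 0.22 for all genes at 21 months, and 0.15 and 0.23 at 13 months, with Ezh2 and Kmt2c past the dotted lines.

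Over the 4 libraries the highest RPKM of a member was under 1.2 times its lowest for 21 of 62 members (33.9%), against 19.3% of all genes tested, with no matching for level. It was at least 1.5 times for 4 members, Ezh2, Kmt2c, Kdm5a and Setd6 (6.45%), against 35.1% of all genes. The highest value lay in the 13 month ipsilateral library for 27 of 62 members (43.5%, against 31.4% of all genes) and in the 21 month ipsilateral library for 16 (25.8%, against 33.3%). The lowest value lay in the 21 month ipsilateral library for 18 (29.0%, against 21.1%) and in the 13 month ipsilateral library for 19 (30.6%, against 31.9%).

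The supply of the methyl donor S-adenosylmethionine was described by 12 tested genes. Of all genes, 13.3% rose and 0.814% fell in limma. Ahcy, which clears the product S-adenosylhomocysteine that inhibits methyltransferases, rose by a log2 value of 0.57 ± 0.17 (adjusted p = 0.0233 in limma, 2 libraries per side), and 0 fell. It was at 24.03 RPKM ipsilaterally against 15.7 RPKM contralaterally at 21 months, and at 22.9 against 15.2 RPKM at 13 months, with both ipsilateral values above both contralateral ones. The medians of the list were -0.02 at 21 months and -0.11 at 13 months. Of 10 tested other lysine methyltransferases 0 rose and 0 fell, with medians of 0.30 and 0.16.

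**Figure D5:**
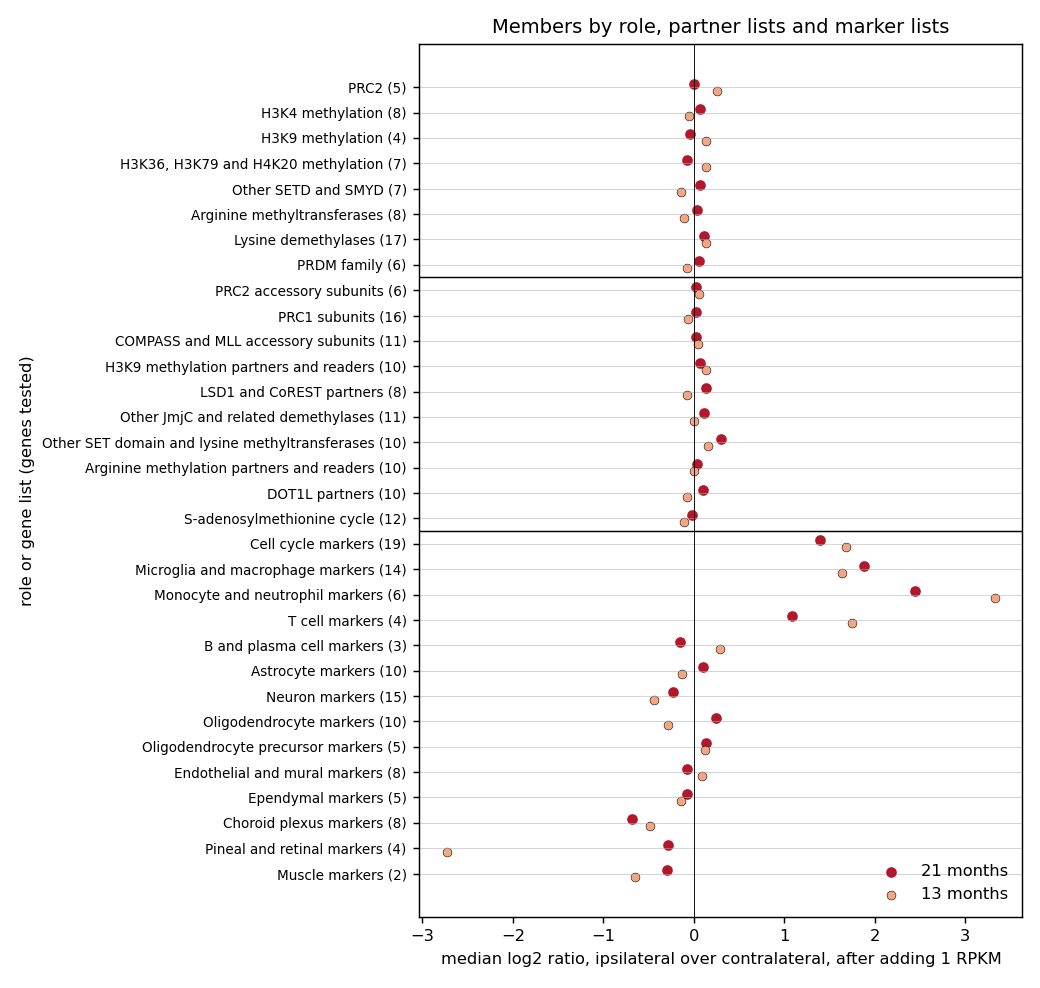
Median log2 side ratio, after adding 1 RPKM, at 21 months (dark red) and 13 months (light) for the members by role (top block), lists of partner genes (middle) and marker lists (bottom), with the number of genes tested in brackets. The medians of the roles lie between -0.14 and 0.26, against 1.39 and 1.68 for cell cycle markers.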

How the data were processed

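Per the labels, total RNA of pooled rat brain tissue was DNase treated, selected with oligo(dT) beads and made into directional libraries. The tools cutadapt, TopHat2 and edgeR and the human build GRCh38 are listed, per the submitters' processing notes, with no version or role; the identifiers are those of rat, so the build is not settled. How genes were counted, their lengths and the use of strand were not given in the sources used here, and reads of near-identical or related copies (Kdm5c and Kdm5d, Prmt1 and Prmt8, Suv39h1l1) may have been split. The deposited RPKM values come from the authors, with 2 decimals; no counts could be recovered, so depth and the precision of single values are unknown.

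The 12160 genes that averaged 1 RPKM or more were kept, on the log2(RPKM + 1) scale. Ratios of single libraries have no test; those past 1.5-fold were counted, and 2-fold was an alternative. The fit by limma 3.58.1 (R 4.3.3) had additive terms for side and age, with eBayes, two-sided, with Benjamini-Hochberg adjustment over all 12160 genes at 0.05. The fit was also run on simulated data with the same spread for every gene. Such a run cannot show how the fit does where spreads differ between genes. Members and the 24 lists of partner and marker genes were chosen with earlier results of these data known; of 290 list entries 28 were not matched and 4 were matched by another name. Every member could be named; values in each library are given for the 10 highest and 10 lowest by the smaller side ratio of both ages with the same sign, those past 1.5-fold, the 5 most abundant and a set of core enzymes; Setd6 and others were added for completeness of a role. The values of 1 member under this rule are not reported here. Of the lists, the 2 highest and 2 lowest genes could be named. Alternatives were 0.1 RPKM added, no filter, a mean of at least 5 RPKM, scaling by the median ratio or by the sum without mitochondrial genes, limma without the age term and limma with a trend. An alternative with neither filter nor 1 RPKM added (0.1 RPKM instead) was chosen after seeing the data.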

Additional observations from a re-analysis of the deposited data

Results flagged for a closer look

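In 2 members the sides differed in opposite directions at the ages, with ratios over 1.5-fold apart. Prmt2 had a side ratio higher by 0.60 on the log2 scale at 21 months than at 13 months. Kdm5a had a difference of -0.70, being lower ipsilaterally at 21 months and higher at 13 months. With 1 library in each group these differences were not tested. With median-ratio scaling the difference of Prmt2 was 0.52, under 1.5-fold.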

How the results depend on the processing

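With 1 library in each group no library could be left out of a ratio, and limma without 1 library has no residual degrees of freedom. No paired analysis was possible because the labels give no replicate numbers; age as a term in limma is the block by age, and without it 1 member still rose, with an adjusted p of 0.0493 for Ezh2. Over the alternatives the adjusted p of Ezh2 in limma ranged from 7.78e-05 to 0.218. Members that rose in limma were 0 with no filter, 0 with a mean of at least 5 RPKM, which removes Ezh2, and 0 with neither filter nor 1 RPKM added; 1 member, Kmt2c, fell with median-ratio scaling. Why the call of Ezh2 is lost without the filter was not tested.

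With a mean of at least 5 RPKM, which removes Ezh2 and Kmt2c, 0 members were higher and 0 lower by 1.5-fold at 21 months, 0 were higher at 13 months, 1 was lower with age ipsilaterally and 1 had a lower side ratio at 21 than at 13 months. With median-ratio scaling 0 were higher at 21 months, and the difference between ages had 0 members higher and 5 lower. Scaling by the sum without mitochondrial genes gave 0 higher at 21 months, and moved the median of the members there to -0.08, beside -0.01 for all genes. With 0.1 RPKM added, 1 member (Setd6) was higher with age ipsilaterally, 2 had a higher side ratio at 21 than at 13 months, Kmt2c passed 1.5-fold lower with age ipsilaterally (-0.67, and -0.59 with median-ratio scaling) and Kdm7a had a lower side ratio at 21 than at 13 months (-0.72). With neither filter nor 1 RPKM added, 2 members were higher and 2 lower at 21 months, 2 higher at 13 months, 1 higher with age ipsilaterally, 3 higher with age contralaterally, and the difference between ages had 2 higher and 8 lower. At 2-fold, 0 were higher and 0 lower at 21 months, 0 lower with age ipsilaterally, and the difference between ages had 0 higher and 0 lower. Shares of all genes past 1.5-fold or called in limma were counted under the main settings only. The member counts under the alternatives thus have no background beside them and describe only the processing. No value past 1.5-fold changed its sign in the alternatives run. Depth is unknown, so the lowest genes, such as Prdm1, are the least certain.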

Other observations

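Of the 102 tested genes in the lists of partners, 42 (41.2%) had their highest value in the 21 month ipsilateral library, against 33.3% of all genes, and 23 (22.5%) had their lowest value there, against 21.1% of all genes. Among the 42 were Cxxc1, at 19.05 RPKM ipsilaterally against 14.49 RPKM contralaterally at 21 months, and at 17.76 against 14.61 RPKM at 13 months. Jmjd8, also among them, was at 18.51 RPKM ipsilaterally against 13.85 RPKM contralaterally at 21 months, and at 13.96 against 13.01 RPKM at 13 months. The genes given next are instead among the 23, whose share was near that of all genes. All genes named here were chosen after their values were seen. Bod1l1, a subunit of the SET1 complexes, was at 16.6 RPKM ipsilaterally against 24.9 RPKM contralaterally at 21 months, and at 22.8 against 24.9 RPKM at 13 months. Psip1, which tethers MLL complexes to chromatin, was at 77.8 RPKM ipsilaterally against 109 RPKM contralaterally at 21 months, and at 99.3 against 115 RPKM at 13 months. The JmjC gene Jmjd1c was at 8.85 RPKM ipsilaterally against 12.2 RPKM contralaterally at 21 months, and at 12.6 against 11.0 RPKM at 13 months, and the heterochromatin protein gene Cbx5 at 33.7 RPKM ipsilaterally against 45.8 RPKM contralaterally at 21 months, and at 44.4 against 46.1 RPKM at 13 months. None of the genes named here passed the limma test over both ages, and the difference between ages was not tested.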
